A study of Mus musculus with 6 samples.

Results

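The galectins are a family of sugar-binding proteins, and 7 of their genes were followed here in B16F10, a pigmented mouse melanoma cell line. The members were the rows of the expression table named Lgals1, Lgals2, Lgals3, Lgals4, Lgals7, Lgals8 and Lgals9, which are 7 of 51912 genes. The family was selected on measured values of the same comparison, in which Lgals3 had shown the lowest log2 change of all tested genes. Differences of the members between these groups are therefore given as descriptions, with no test. The A10KO group held 3 libraries (replicates 1, 13 and 14) of B16F10 cells in which the gene of annexin A10 was knocked out (ANXA10-/-). The WT group held 3 libraries (replicates 1, 2 and 3) of wild-type B16F10 cells. The labels give no treatment or time and do not say whether the replicates are clones, cultures or repeated preparations, so a p-value here reflects no more than library-to-library spread, part of which could be technical. The series title places annexin A10 in melanoma metastasis, beside the kinase PKD1 and the ubiquitin ligase TRIM41.

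Galectins bind galactose-containing sugars on glycoproteins. They are made in the cytosol without a signal peptide, leave the cell by an unconventional route, and cross-link glycoproteins at the surface and in the matrix. Inside the cell they gather on lysosomes and other vesicles whose membrane has broken. Galectin-3 carries a single sugar-binding domain behind a flexible tail through which it forms oligomers, and in melanoma it has been tied to adhesion, invasion and metastasis. Galectin-1 pairs with itself, whereas galectin-4, galectin-8 and galectin-9 carry a pair of linked sugar-binding domains.

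The values were TPM, a unit of relative transcript abundance scaled by transcript length and library total. Because TPM retains no read totals, sequencing depth is unknown and no counting error can be given. Anxa10 itself was listed at 0 TPM in all 6 libraries, WT included, and so the genotype labels could not be checked against it. Melanocyte markers were high throughout, with 9 markers that included Mitf, Sox10, Tyrp1 and Pmel summing to between 9555 and 11492 TPM in A10KO and between 9096 and 10189 TPM in WT. A10KO replicate 13 stood apart, with 14.7% of its TPM from mitochondrially encoded transcripts, where A10KO replicates 1 and 14 had 7.93% and 7.37% and no WT library exceeded 6.56%. Limma's linear model was fitted to the 12068 genes that reached 1 TPM in 3 or more libraries, and was run on log2(TPM + 1). Benjamini-Hochberg adjusted p-values under 0.05 counted as called. All log2 changes are A10KO minus WT on that scale, where the added 1 shrinks changes of weakly expressed genes.

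The start of 4 genes is shown first, because the text turns on them. Lgals3, Lgals9 and Lgals3bp, the gene of a secreted glycoprotein that galectin-3 binds, are the galectin genes and relatives among those tested whose A10KO and WT libraries did not overlap. Lgals8 is a member of similar level whose libraries did. Each sequence runs 5′ to 3′ on the gene's strand, from 250 bases before to 30 bases after the transcription start in RefSeq on GRCm38.p6. That start differs from the outer end of the GENCODE gene whose coordinates are given below, and lies inside it by 6109 bases in Lgals3, 22 in Lgals9, 133 in Lgals3bp and 3206 in Lgals8. The RefSeq table held 6 of the 7 members. Capitals mark matches to the motifs listed below.
Lgals3 (chr14:47373610-47373889, plus strand): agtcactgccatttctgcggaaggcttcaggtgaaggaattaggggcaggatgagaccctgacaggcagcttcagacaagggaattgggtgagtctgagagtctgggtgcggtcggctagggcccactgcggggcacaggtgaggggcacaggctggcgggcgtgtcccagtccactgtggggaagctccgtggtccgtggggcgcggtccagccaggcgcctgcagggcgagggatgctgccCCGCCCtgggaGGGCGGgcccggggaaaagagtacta
Lgals9 (chr11:78984895-78985174, minus strand): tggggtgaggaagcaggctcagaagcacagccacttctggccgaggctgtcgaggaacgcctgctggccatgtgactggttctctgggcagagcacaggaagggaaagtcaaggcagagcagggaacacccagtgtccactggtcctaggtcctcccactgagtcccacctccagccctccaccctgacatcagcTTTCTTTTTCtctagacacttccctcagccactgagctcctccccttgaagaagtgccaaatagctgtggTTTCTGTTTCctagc
Lgals3bp (chr11:118401930-118402209, minus strand): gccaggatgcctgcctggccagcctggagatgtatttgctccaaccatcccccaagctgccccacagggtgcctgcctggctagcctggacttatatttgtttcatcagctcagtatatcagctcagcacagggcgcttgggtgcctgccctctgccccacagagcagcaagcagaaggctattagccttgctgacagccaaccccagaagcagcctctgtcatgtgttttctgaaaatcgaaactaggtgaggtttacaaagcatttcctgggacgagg
Lgals8 (chr13:12461709-12461988, minus strand): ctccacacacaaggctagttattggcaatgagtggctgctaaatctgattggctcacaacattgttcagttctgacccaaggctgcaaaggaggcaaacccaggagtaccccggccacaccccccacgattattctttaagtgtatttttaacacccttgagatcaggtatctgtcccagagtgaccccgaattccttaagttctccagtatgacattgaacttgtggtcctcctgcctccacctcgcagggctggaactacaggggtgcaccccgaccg

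Both strands of each window were searched for the GC box GGGCGG, the interferon-stimulated response element (GAAA, any 2 bases, GAAA), the interferon-gamma activated site TTCNNNGAA, the AP-1 site TGANTCA and the E-box CACGTG. The Lgals3 window held 2 GC boxes, beginning 7 bases before and at base 5 after the start, and 34.7% of the 32851 RefSeq windows of this length hold at least 1. The Lgals9 window held 2 matches to the interferon-stimulated response element, both on the opposite strand, beginning 55 bases before and at base 16 after the start, and 3.28% of windows hold at least 1. The windows of Lgals3bp and Lgals8 held 0 matches to any of the 5 motifs. None of the 4 windows held the interferon-gamma activated site, the AP-1 site or the E-box, which 7.83%, 7.46% and 6.79% of all windows hold. The Lgals3 window held 15 CG pairs, against 3 in Lgals9, 3 in Lgals3bp, 6 in Lgals8 and a median of 6 over all windows. A match is a string of letters and not a measured binding site.

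Lgals3 was nearly absent from A10KO and of moderate level in WT. The gene (ENSMUSG00000050335) lies on the plus strand of GRCm38 chromosome 14, from 47367751 to 47386160, and is annotated as protein coding. It stood at 0.24, 0.07 and 0.07 TPM in A10KO replicates 1, 13 and 14, against 18.4, 24.4 and 21.2 TPM in WT replicates 1, 2 and 3. All A10KO libraries were below 1 TPM and every WT library was above 18 TPM, so the groups lay far apart. The means were 0.127 ± 0.0981 TPM in A10KO and 21.3 ± 2.98 TPM in WT (SD, n = 3 each), and the A10KO mean was 99.4% below the WT mean. The log2 change of -4.30 (SE 0.20) was the lowest of the 12068 genes, with each A10KO library between -4.16 and -4.37 against the WT mean. With a pseudocount of 0.1 in place of 1 it was -6.64. In whole-culture RNA, fewer cells with the transcript and less transcript per cell cannot be told apart. By level Lgals3 ranked between 4864 and 5487 of all genes in the WT libraries, and between 14496 and 16832 in the A10KO libraries.

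Galectin-3 is also abundant in macrophages, so macrophage markers were measured alongside. Of 14 macrophage and leukocyte markers, 4 (Tyrobp, Adgre1, Itgam and Mrc1) were at 0 TPM in every library and 12 were under 1 TPM in every library. Their summed level ran from 1.42 to 2.78 TPM in A10KO and from 4.39 to 6.65 TPM in WT. Most of that sum in WT was Cd68, which encodes a lysosomal membrane glycoprotein, at 1.29, 0.89 and 0.86 TPM in A10KO and 2.42, 4.70 and 4.80 TPM in WT. Of 8 fibroblast markers, 5 were under 1 TPM in every library, and the list summed to between 2.61 and 6.04 TPM in A10KO and between 6.63 and 8.96 TPM in WT. Among them Col1a1, a collagen gene, stood at 0.62, 1.60 and 0.32 TPM in A10KO and at 1.93, 2.42 and 2.46 TPM in WT, while Lum was at 0 in every library. Pdgfrb stood at 4.69, 2.91 and 1.32 TPM in A10KO and at 3.49, 5.52 and 4.15 TPM in WT. Col1a2 stood at 0.15, 1.12 and 0.72 TPM in A10KO and at 0.91, 0.81 and 0.50 TPM in WT. The groups overlapped for Pdgfrb and for Col1a2. The macrophage and fibroblast sums were thus both lower in A10KO without overlap. Of 8 endothelial markers, 5 were under 1 TPM in every library and Emcn was at 0, and the list summed to between 41.2 and 62.9 TPM in A10KO and between 33.2 and 47.3 TPM in WT. Within it Tek was higher in every A10KO library, at 19.3, 37.5 and 28.8 TPM in A10KO and 8.20, 15.8 and 7.32 TPM in WT. Vwf had a lower mean in A10KO with overlap, at 1.96, 0.59 and 6.20 TPM, against 5.96, 7.08 and 8.62 TPM in WT. The log2 change of Egfl7 was 0.01 (SE 0.16). The part of these marker levels in the Lgals3 difference was not tested.

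Lgals9, which encodes a galectin that interferons induce in many cell types, also had A10KO libraries below all WT libraries. The gene (ENSMUSG00000001123) lies on the minus strand of chromosome 11, from 78962974 to 78984946. It stood at 26.5, 12.5 and 29.4 TPM in A10KO replicates 1, 13 and 14, against 60.4, 64.5 and 64.9 TPM in WT replicates 1, 2 and 3. A10KO replicate 13 was the lowest, and the highest A10KO library was still below the lowest WT library. The means were 22.8 ± 9.04 TPM in A10KO and 63.3 ± 2.49 TPM in WT (SD, n = 3 each), and the log2 change was -1.52 (SE 0.29). That was rank 62 from the lowest of all tested genes, and it was -1.15 without A10KO replicate 13.

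Lgals1 was by far the most abundant galectin gene, and its groups overlapped. Galectin-1 acts on adhesion and on the survival of T cells, among other roles. The gene (ENSMUSG00000068220) lies on the plus strand of chromosome 15, from 78926725 to 78930465. It stood at 1295, 1047 and 1606 TPM in A10KO replicates 1, 13 and 14, against 1508, 1505 and 1680 TPM in WT replicates 1, 2 and 3. A10KO replicates 1 and 13 were below every WT library, whereas A10KO replicate 14 was within the WT range. The log2 change was -0.27 (SE 0.18), which was -0.12 without A10KO replicate 13 and -0.42 without A10KO replicate 14. In every library Lgals1 ranked between 96 and 125 of all genes by level and made up most of the summed galectin TPM.

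Lgals8, whose product marks broken vesicles and recruits autophagy receptors to them, was at the same order of level in both groups. This gene (ENSMUSG00000057554) lies on the minus strand of chromosome 13, from 12439415 to 12464944. It stood at 39.5, 37.1 and 32.6 TPM in A10KO replicates 1, 13 and 14, against 30.5, 37.8 and 31.5 TPM in WT replicates 1, 2 and 3. The groups overlapped, and the log2 change was 0.13 (SE 0.14), with a range of 0.07 to 0.22 as each library was left out in turn.

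The other members were low. Lgals4 (ENSMUSG00000053964, chromosome 7, 28833854 to 28841708, plus strand), which encodes a galectin of the gut epithelium, stood at 4.42, 3.60 and 2.55 TPM in A10KO and at 2.60, 3.98 and 3.43 TPM in WT. The groups overlapped, and its log2 change of 0.05 (SE 0.24) turned to -0.09 without A10KO replicate 1 and to -0.08 without WT replicate 1. Lgals7 (ENSMUSG00000053522, chromosome 7, 28863853 to 28866284, plus strand), the gene of a galectin of stratified epithelia, stood at 0.63, 1.49 and 3.44 TPM in A10KO and at 2.32, 1.93 and 3.30 TPM in WT. Its A10KO libraries held both the lowest and the highest value, and the log2 change of -0.40 (SE 0.38) was -0.06 without A10KO replicate 1 and -0.78 without A10KO replicate 14. Lgals2 (ENSMUSG00000043501, chromosome 15, 78850860 to 78855529, minus strand) stood at 0.14, 0.36 and 0 TPM in A10KO and at 0.16, 0 and 0.29 TPM in WT. It did not pass the filter on low values. All 8 epithelial markers and all 8 keratinocyte markers were under 1 TPM in every library, with epithelial sums of 0.19 to 1.21 TPM in A10KO and 0.49 to 0.79 TPM in WT, and keratinocyte sums of 0.01 to 0.46 TPM in A10KO and 0.27 to 0.35 TPM in WT.

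**Figure D1:**
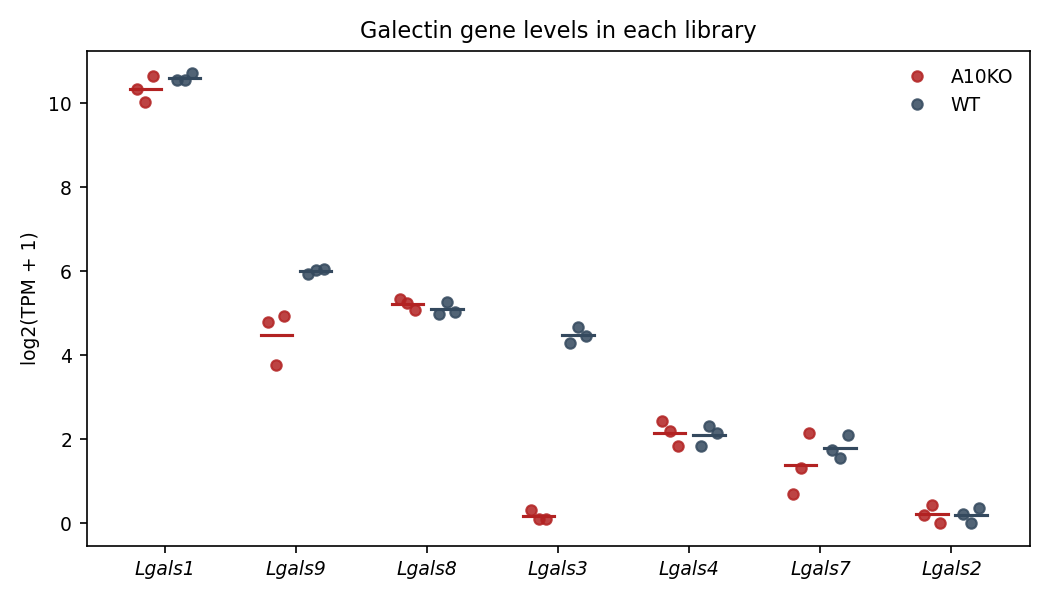
Level of each galectin gene, as log2(TPM + 1) on the vertical axis, in the 3 A10KO libraries (red, left) and the 3 WT libraries (dark, right); points are libraries and short lines are group means. The Lgals3 and Lgals9 points of the groups do not overlap, and Lgals1 is the highest gene in every library.

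Of the 7 members 6 passed the filter, Lgals3 through its WT libraries alone. The libraries of 2 members, Lgals3 and Lgals9, were lower in A10KO without overlap, as were those of 11.5% of all tested genes. That count rests on the comparison through which the family was chosen, and nothing is read from it. The median log2 change over all tested genes was -0.04, and 9 in 10 genes lay between -0.63 and 0.45.

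**Figure D2:**
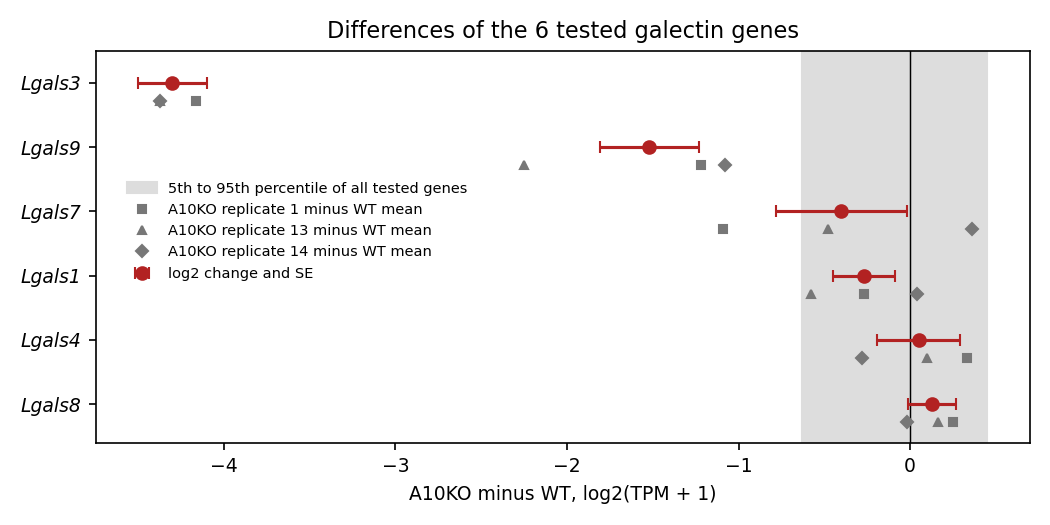
Log2 change of the 6 tested galectin genes, A10KO minus WT on log2(TPM + 1), with the SE from limma (red), and each A10KO library minus the WT mean (grey). Grey shading spans the 5th to 95th percentile of all tested genes, and Lgals3 at -4.30 and Lgals9 at -1.52 lie below it.

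The order of the members by mean level differed between the groups. In A10KO it ran Lgals1, Lgals8, Lgals9, Lgals4, Lgals7, Lgals2 and Lgals3, and the library ranges overlapped between Lgals4 and Lgals7 and between Lgals2 and Lgals3. In WT it ran Lgals1, Lgals9, Lgals8, Lgals3, Lgals4, Lgals7 and Lgals2, and only Lgals4 and Lgals7 overlapped among neighbours. The level of Lgals9 was 0.671, 0.337 and 0.904 times that of Lgals8 in A10KO replicates 1, 13 and 14, and 1.98, 1.71 and 2.06 times in WT replicates 1, 2 and 3. Lgals8 was thus the higher of these genes in every A10KO library and Lgals9 in every WT library. The members summed to 1367, 1103 and 1674 TPM in A10KO, against 1622, 1638 and 1804 TPM in WT, and the A10KO libraries reached into the WT range. Without Lgals1 the sum was 71.4, 55.2 and 68.0 TPM in A10KO, against 114, 133 and 125 TPM in WT.

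Among relatives outside the 7 members, Lgals3bp had the larger difference of those tested. Its product is secreted, binds galectin-3 and galectin-1, and is induced by interferons in many cell types. The gene (ENSMUSG00000033880, chromosome 11, 118392751 to 118402092, minus strand) stood at 88.6, 17.4 and 74.4 TPM in A10KO replicates 1, 13 and 14, against 169, 184 and 183 TPM in WT replicates 1, 2 and 3. The groups did not overlap, A10KO replicate 13 was the lowest, and limma did not call the gene (log2 change -1.85, SE 0.54, adjusted p = 0.42). Its log2 change was -1.13 without A10KO replicate 13. Lgalsl, a galectin-like gene, stood at 9.78, 17.2 and 11.3 TPM in A10KO and at 9.97, 13.6 and 11.2 TPM in WT, and the groups overlapped. Lgals12 and Grifin were under 1 TPM in every library and were not tested, and Lgals6 and Clc are not analysed here. Of the 2 relatives tested, limma called 0, beside 0.0414% of all tested genes (0.0249% lower and 0.0166% higher), with 1 at an unadjusted p under 0.05, beside 8.83% of all tested genes.

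**Figure D3:**
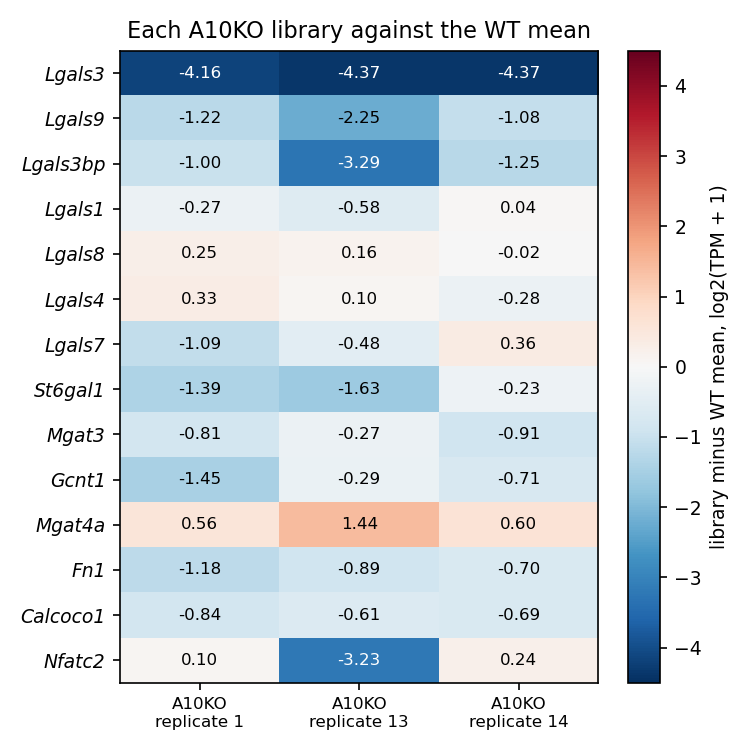
Each A10KO library minus the WT mean on log2(TPM + 1), for galectin genes and for genes tied to them that were picked after their values were seen; colour and printed number give the same value. Lgals3 lies between -4.37 and -4.16 in all 3 libraries, whereas Lgals9, Lgals3bp and Nfatc2 are lowest in replicate 13.

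Among genes that build the sugars bound by galectins, limma called 0 of 27 tested, beside 0.0414% of all tested genes. At an unadjusted p under 0.05 there were 5 lower and 1 higher, which is 22.2% of the list beside 8.83% of all tested genes (6.27% lower and 2.56% higher). The median log2 change was -0.14, against -0.04 over all tested genes, and without A10KO replicate 1 it was -0.01, against -0.00 over all tested genes. It was -0.07 without A10KO replicate 14 and -0.08 without WT replicate 2, against -0.05 and -0.02 over all tested genes. The groups did not overlap for 8 lower and 3 higher genes, or 40.7% of the list, beside 17.1% of all tested genes (11.5% lower and 5.61% higher). Whether these shares differ from those of other genes was not tested. St6gal1, which caps galactose with a sialic acid that hinders galectin-1, stood at 17.5, 14.6 and 40.3 TPM in A10KO replicates 1, 13 and 14, against 52.7, 46.3 and 43.7 TPM in WT replicates 1, 2 and 3 (log2 change -1.09, SE 0.34). A10KO replicate 14 lay just under the WT range and the other A10KO libraries far under it. Mgat4a, a branching enzyme of N-glycans, stood at 12, 22.8 and 12.3 TPM in A10KO and at 7.22, 8.79 and 7.47 TPM in WT (log2 change 0.87, SE 0.26, and 0.58 without A10KO replicate 13). Its more abundant paralog Mgat4b stood at 315, 172 and 302 TPM in A10KO and at 332, 338 and 324 TPM in WT. So the values of the paralogs lay on opposite sides, Mgat4a above and Mgat4b below WT in every A10KO library. The log2 change of Mgat4b was -0.38 (SE 0.23), and -0.10 without A10KO replicate 13. Against the WT mean, Mgat4b lay at -0.07, -0.94 and -0.14 in A10KO replicates 1, 13 and 14.

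Further enzymes of the list acted on branching and capping. Mgat3, which adds the bisecting sugar that stops branching, stood at 3.34, 5.32 and 3.05 TPM in A10KO and at 5.49, 7.57 and 6.92 TPM in WT. Gcnt1, which branches mucin-type O-glycans, stood at 0.10, 1.46 and 0.83 TPM in A10KO and at 1.80, 2.09 and 2.13 TPM in WT. Both were lower in every A10KO library, and the log2 change was -0.66 (SE 0.24) for Mgat3 and -0.82 (SE 0.32) for Gcnt1. Without A10KO replicate 1 that of Gcnt1 was -0.50. St3gal6, with the second highest mean of the list, stood at 58.4, 108 and 63.7 TPM in A10KO and at 73.5, 106 and 80.2 TPM in WT, and overlapped. Mgat5, whose branch galectin-3 favours and which was picked after its values were seen, stood at 15.2, 27.9 and 25.1 TPM in A10KO and at 23.9, 29.5 and 23.3 TPM in WT, and overlapped as well.

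Among glycoproteins bound by galectin-3, limma called 0 of 20 tested, beside 0.0414% of all tested genes. At an unadjusted p under 0.05 there was 1, or 5% of the list beside 8.83% of all tested genes, and the groups did not overlap for 2, or 10% beside 17.1%. These shares were below those of all tested genes, and whether they differ from those of other genes was not tested. The median log2 change was -0.13, against -0.04 over all tested genes. As each library was left out, the list median ran from -0.24 without A10KO replicate 13 to -0.02 without WT replicate 2. It was -0.03 without A10KO replicate 1 and -0.06 without A10KO replicate 14. In the same order, the medians over all tested genes were -0.08, -0.02, -0.00 and -0.05. The gene at an unadjusted p under 0.05 was Fn1, which encodes the matrix protein fibronectin, at 30.4, 37.3 and 42.7 TPM in A10KO and 60.3, 87.0 and 65.3 TPM in WT (log2 change -0.92, SE 0.19, limma adjusted p = 0.226). The fibroblast and macrophage marker sums above were also lower in A10KO, and their part in the Fn1 difference was not tested. Cd63, a tetraspanin gene, was the other whose groups did not overlap, at 795, 653 and 760 TPM in A10KO and 818, 832 and 851 TPM in WT. The most abundant was Bsg, the gene of basigin, at 1076, 892 and 674 TPM in A10KO and 802, 1085 and 877 TPM in WT. Cd44 and Lamp1, a hyaluronan receptor gene and a lysosomal membrane glycoprotein gene picked after their values were seen, averaged 62.3 ± 7.28 and 369 ± 81.9 TPM in A10KO and 69.6 ± 9.89 and 341 ± 3.20 TPM in WT (SD, n = 3 each). The 8 genes of the list under the filter included Lag3, Egfr and Muc1.

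Of 14 tested genes that have been linked to galectin-3 in tumour cells, limma called 0, beside 0.0414% of all tested genes, with 0 at an unadjusted p under 0.05, beside 8.83%. Their median log2 change of 0.03 turned to -0.06 without A10KO replicate 13 and to -0.02 without A10KO replicate 14. The medians over all tested genes were -0.08 and -0.05 in these settings. Nfatc2 encodes a transcription factor that galectin-3 has been reported to maintain in human melanoma cells, and it was picked after its values were seen. It stood at 9.29, 0.02 and 10.4 TPM in A10KO replicates 1, 13 and 14, against 8.70, 8.85 and 8.26 TPM in WT replicates 1, 2 and 3. A10KO replicate 13 was low, and A10KO replicates 1 and 14 were above every WT library. Enpp2, the autotaxin gene reported to lie downstream of that factor, stood at 39.9, 50.3 and 42.3 TPM in A10KO and at 39.5, 55.9 and 43.3 TPM in WT. Its groups overlapped. Ctnnb1 (beta-catenin) stood at 687, 612 and 574 TPM in A10KO and at 565, 598 and 554 TPM in WT. Akt1 stood at 435, 585 and 557 TPM in A10KO and at 528, 480 and 521 TPM in WT, and both genes overlapped between the groups.

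Genes of the response to broken lysosomes, which galectin-3 and galectin-8 mark, had a median log2 change of -0.04 over 20 tested. That was also the median over all tested genes. Under median-of-ratios scaling the list median turned to 0.01, and that over all tested genes was 0.01 as well. With mitochondrial transcripts removed it was 0.03, against 0.02 over all tested genes. Limma called 0, beside 0.0414% of all tested genes. At an unadjusted p under 0.05 there was 1, or 5% of the list beside 8.83% of all tested genes, and the groups did not overlap for 3, or 15% beside 17.1%. The gene at an unadjusted p under 0.05 was Calcoco1, an autophagy receptor gene, at 12.7, 15.2 and 14.2 TPM in A10KO and 19.2, 31.5 and 21.8 TPM in WT (log2 change -0.71, SE 0.20, limma adjusted p = 0.404). Chmp4b and Tsg101, genes of the membrane-repairing ESCRT machinery, were also lower without overlap, with log2 changes of -0.33 (SE 0.16) for Chmp4b and -0.15 (SE 0.11) for Tsg101. That of Chmp4b was -0.20 without A10KO replicate 1, and that of Tsg101 was -0.09 with mitochondrial transcripts removed. Sqstm1, an autophagy receptor gene, stood at 990, 482 and 456 TPM in A10KO and at 682, 622 and 644 TPM in WT, so the A10KO libraries lay on both sides of WT. Vcp, an ATPase gene, stood at 367, 426 and 392 TPM in A10KO and at 367, 349 and 376 TPM in WT.

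**Figure D4:**
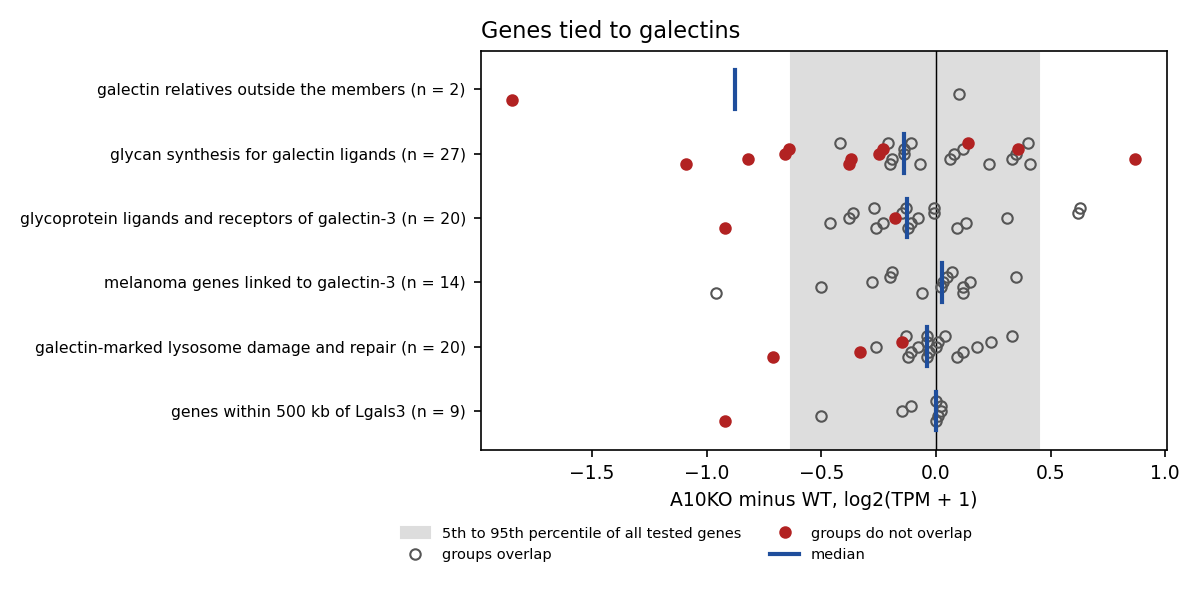
Log2 change (A10KO minus WT) of every tested gene in the lists tied to galectins and within 500 kb of Lgals3; filled points are genes whose groups do not overlap and blue bars are list medians. The medians lie between -0.14 and 0.03 for all lists but the relatives, which have 2 tested genes.

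The table held 13 genes within 500 kb of Lgals3, 0 of them overlapping it, of which 9, all protein coding, were tested. Limma called 0 of these 9, beside 0.0414% of all tested genes. At an unadjusted p under 0.05 there was 1, or 11.1% of the list beside 8.83% of all tested genes, and the groups did not overlap for 1, or 11.1% beside 17.1%. These shares lay near those of all tested genes. The median log2 change of 0.00 ran from -0.23 without A10KO replicate 13 to 0.15 without A10KO replicate 1. The medians over all tested genes were -0.08 and -0.00 in these settings. Dlgap5, a mitosis gene on the opposite strand whose end lies 1.62 kb beyond the end of Lgals3, stood at 44.6, 42.7 and 39.4 TPM in A10KO and at 37.7, 57.2 and 44.1 TPM in WT. The groups overlapped, with a log2 change of -0.11 (SE 0.17) that was -0.25 without WT replicate 1 and 0.05 without WT replicate 2. Mapk1ip1l, the nearest tested gene on the other side at 44.55 kb, had a log2 change of 0.01 (SE 0.19). Gch1, which encodes the entry enzyme of tetrahydrobiopterin synthesis 178.34 kb away, was the gene that lay apart, at 1.55, 1.80 and 0.58 TPM in A10KO and 2.72, 4.01 and 3.14 TPM in WT (log2 change -0.92, SE 0.28, limma adjusted p = 0.426). Ktn1, the kinectin gene, stood at 24.5, 43.7 and 28.9 TPM in A10KO and at 28.8, 33.5 and 31.9 TPM in WT.

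**Figure D5:**
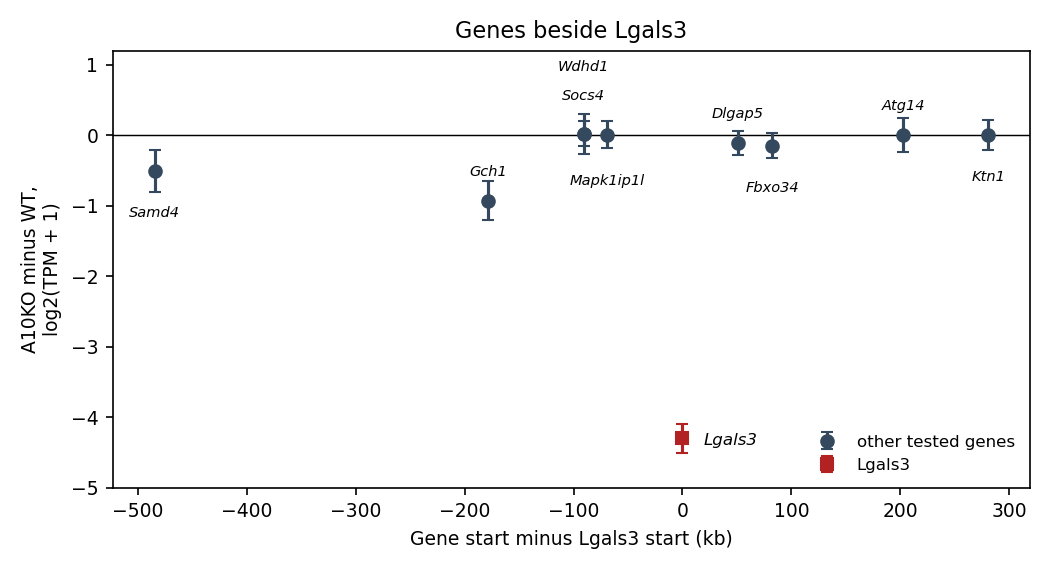
Log2 change (A10KO minus WT, with SE) of the tested genes within 500 kb of Lgals3, against the distance in kb of their GENCODE start from that of Lgals3, which lies upstream of the RefSeq start. Lgals3 lies at -4.30, and the other 9 genes lie between -0.92 and 0.02.

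The genes whose values followed Lgals3 most closely were Tubb2b, Anpep, S100a10, Isg15 and Mxra7. Likeness was Pearson's correlation on log2(TPM + 1) over the 6 libraries, among 1795 genes with a WT mean of at least 5 TPM and a span of at least 1, predicted genes, pseudogenes and mitochondrial transcripts left out by symbol. The values were 0.9989, 0.9937, 0.9843, 0.9826 and 0.9825. They rest on the separation of the groups, which the 6 libraries share, and are a description. Tubb2b, a beta-tubulin gene, stood at 6.23, 6.25 and 6.18 TPM in A10KO, against 26.3, 31.9 and 30.5 TPM in WT. Anpep, the gene of aminopeptidase N, stood at 9.06, 9.51 and 8.43 TPM in A10KO, against 19.6, 22.0 and 19.2 TPM in WT. In both genes the A10KO libraries lay close together and apart from WT. Lgals9 ranked 64 in this order (0.9046) and Lgals3bp 197 (0.7982), with A10KO replicate 13 below the other A10KO libraries in each.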

How the data were processed

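RNA-seq libraries of B16F10 cells (3 A10KO, 3 WT) were compared, grouped by genotype as labelled. The tools fastp, HISAT and RSEM and the build GRCm38.p5 are named per the submitters' processing notes. Their versions, settings and strand handling: not given in the sources used here. The deposited values are TPM by the authors, as read from the values (decimals, column sums of 969834 to 985045), although the table is presented as counts. Library tables equalled the series table in 6 of 6 cases. Depth is unknown. Limma 3.58.1 in R 4.3.3 was used with a mean-variance trend and no covariates. It was fitted to log2(TPM + 1) for the 12068 genes that reached 1 TPM in 3 or more libraries. A test on simulated normal values gave both groups equal spread and did not cover a library standing apart, such as A10KO replicate 13. Coordinates came from GENCODE M21 by identifier (51719 of 51912 genes), promoter windows from RefSeq on GRCm38.p6. A symbol on several rows was taken by GENCODE identifier. Alternatives were a pseudocount of 0.1, no filter, a 5 TPM filter, median-of-ratios scaling, removal of mitochondrial transcripts, and each library left out with the tested genes kept. Members, lists and rules were chosen with earlier results of these data known. The rule named, per list, called genes, up to 4 genes without overlap by size of change and the 2 highest means, and the 5 genes most like Lgals3.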

Additional observations from a re-analysis of the deposited data

How the results depend on the processing

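Limma called 5 genes among all tested, and between 2 and 8 as each library was left out: 8 without A10KO replicate 1, 2 without WT replicate 1 or WT replicate 2, and 3 without WT replicate 3. The Lgals3 log2 change was -6.64 with a pseudocount of 0.1 and ran from -4.40 to -4.21 as each library was left out. The ratio of the members' summed TPM, A10KO over WT, was 0.818 and ran from 0.731 to 0.901 as each library was left out. Limma called 0 genes of the 5 lists and of the genes beside Lgals3 under each alternative. Of 345 other values (list medians and log2 changes of named genes), 337 moved by less than the spread between replicates. With groups this small, leaving a library out cannot move the log2 change of a gene by more than that spread. For those values the outcome was fixed in advance, so the 337 are no measure of stability to leaving a library out. Lgals3bp, at -1.85 in the main fit and -1.13 without A10KO replicate 13, counts among them. With no filter the relatives also included Lgals12 and Grifin, both under 1 TPM in every library, while Lgals3bp stayed at -1.85. The median of the relatives then turned to 0.06, against -0.00 over all tested genes. That of the broken-lysosome list turned to 0.01 under median-of-ratios scaling and to 0.03 with mitochondrial transcripts removed. The medians over all tested genes were 0.01 and 0.02 in these settings. The broken-lysosome median was -0.07 without A10KO replicate 1 and -0.01 without A10KO replicate 14, against -0.00 and -0.05 over all tested genes. At a pseudocount of 0.1 the log2 change of Gcnt1 was -1.67, that of Gch1 -1.38 and that of Tubb2b -2.23. That of Lgals7 was -0.67, a move smaller than the spread between replicates. No paired analysis was made, because the labels give no pairing of A10KO with WT libraries.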
